A study of Mus musculus with 24 samples.

Results

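The genes described here encode 3 families of secreted growth factors and the PDGF receptors: the PDGF ligands Pdgfa, Pdgfb, Pdgfc and Pdgfd, the receptors Pdgfra and Pdgfrb, the hepatocyte growth factor Hgf, and the VEGF ligands Vegfa, Vegfc and Figf (the gene of VEGF-D). They were chosen by gene symbol, and the 10 symbols matched 10 of the 25755 genes in the deposited tables. The study sequenced RNA of dermal papilla (DP) cells from mice in which the histone deacetylase genes Hdac1 and Hdac2 were deleted in the DP (dM1/2) and from control mice, in first telogen (P20), early anagen (P24), mid anagen (P28) and second telogen (P60). Each of the 8 groups has 3 libraries, 24 in all. The cells were freed from whole skin and sorted by FACS for YFP, with a repeat sort.

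The dM1/2 mice carried Corin-Cre together with floxed alleles on each copy of Hdac1 and Hdac2. The control mice carried Corin-Cre too, with mixed combinations of floxed and wild-type alleles that leave a wild-type copy of Hdac1 or Hdac2. A single combination has Hdac1 floxed on each copy and another has Hdac2 floxed on each copy, and the labels do not say which library has which combination. Corin-Cre came from an FVB line and the floxed lines from C57BL/6J, and a ROSA26 YFP allele marks the cells in which Cre has acted. Corin is expressed in the DP, so cells elsewhere in the skin keep the 2 genes, and DP cells in which Cre has not acted are not sorted. According to the methods, P20 mice were female, anagen mice male and P60 mice of both sexes.

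Reads on genes numbered 11766916, 13369732 and 11799465 in the P20 controls and 11847207, 11635062 and 12823230 in P20 dM1/2. The P24 libraries had 48687886, 35469841 and 43400148 (controls) and 45106406, 39638953 and 49331751 (dM1/2), the P28 libraries 48331795, 45866922 and 43392939 (controls) and 37171260, 41559897 and 46048245 (dM1/2), and the P60 libraries 9512720, 9096308 and 8843748 (controls) and 9724000, 8171944 and 9670389 (dM1/2). The anagen libraries are thus the deeper ones. Values below are normalized numbers of mRNA reads, that is, reads over each library's size factor, in the order of replicates 1, 2 and 3, and 1 read equals 0.338 to 2.87 normalized reads depending on the library. The test of a gene is limma on the log2 of the value plus 1, with the p-value adjusted by Benjamini-Hochberg over all genes tested at that age. A gene was said to rise or fall where the adjusted p is under 0.05. These p-values measure the spread between these mice, and each log2 fold change is given with its standard error (SE).

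PDGF ligands are secreted dimers that bind the receptor tyrosine kinases encoded by Pdgfra and Pdgfrb, which mark fibroblasts and the cells around vessels, and in skin PDGF-A from epithelium and fat precursors signals to Pdgfra in the dermis and the DP. HGF is made by mesenchymal cells as an inactive chain, is cleaved by serine proteases and acts on epithelium through the receptor Met, and DP cells are a known source of it for the hair follicle. VEGF-A acts on blood vessel endothelium through Flt1 and Kdr, and VEGF-C and VEGF-D, after cleavage, act on lymphatic endothelium through Flt4.

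The deleted genes were read first, as a check of the labels. At P20, Hdac1 had 375, 511 and 505 normalized reads in controls and 216, 369.6 and 270.0 in dM1/2. At P24 it had 675, 668 and 668 in controls and 209, 188 and 116 in dM1/2. Every dM1/2 library lies below every control at these ages, and the fall passed the test at P24 (log2 fold change -2.01 ± 0.22 (SE), adjusted p = 0.00167) but not at P20 (-0.72, adjusted p = 0.122). At P20 the fall was called with the replicate number as a block (adjusted p = 0.0445) and without P20 control 1 (-0.87, adjusted p = 0.0413), and P20 is the age where 6 of 6 libraries match best with their own number. At P28, Hdac1 had 214, 529 and 105 in controls and 190.2, 149 and 126 in dM1/2. The library labelled P28 control 3 lies below all 3 dM1/2 libraries of its age, and control 1 is close to dM1/2 1. The P28 log2 fold change was -0.58 (adjusted p = 0.454) with all libraries and -1.13 (adjusted p = 0.0426) without P28 control 3, so P28 fold changes of the members and of the genes called then are given with and without it. P60 values were 506, 359.9 and 376 in controls and 371, 347 and 318 in dM1/2, which overlap.

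Hdac2 read over the whole gene was not lower in dM1/2. It had 828, 952 and 852 in P20 controls against 928, 839 and 838 in P20 dM1/2, and 925, 1048 and 1069 against 1157, 1223 and 1282 at P24. The P28 values were 1077, 968 and 1117 against 1091, 1223 and 1209.6, and the P60 values 775, 727 and 609 against 699, 719 and 809.6. These values are sums over whole genes and not by exon, so they cannot show whether the floxed part of Hdac2 or its protein was lost. Xist, the noncoding RNA of the inactive X chromosome, lay between 8113 and 26333 in P20 and P60 libraries and between 0 and 3.91 in P24 and P28 libraries. Ddx3y, a Y-linked helicase gene, was 0 in every P20 and P60 library and lay between 969 and 1738 in the anagen libraries. Telogen libraries are thus female and anagen libraries male, and hair cycle stage, sex and read depth cannot be told apart.

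All 12 telogen and 12 anagen libraries hold DP marker RNA. The summed level of 15 DP markers (among them Corin, Vcan, Fgf7 and Sox2) lay between 15758 and 437955 normalized reads per library, with Vcan mostly the most abundant. Other cells that skin or the gate could hold left little marker RNA in several lists: 11 keratinocyte genes summed to 113 to 809.6, 7 melanocyte genes 77.4 to 376, 9 immune genes 162 to 1401, 5 Schwann cell genes 331 to 1384, and 5 skeletal muscle genes 14.3 to 129. Vascular endothelial markers (10 genes) summed to 429 to 6409.9, lymphatic markers (5 genes) to 72.8 to 598, pericyte markers (6 genes) to 5451 to 14697, adipocyte markers (6 genes) to 1379 to 15208, dermal sheath markers (7 genes) to 4413 to 13577, and markers of other fibroblasts (8 genes) to 5326 to 177745. The fibroblast markers have the widest ratio of highest to lowest sum among these lists of other cells, and their values are given beside the results below. P28 control 3 has their lowest sum (5326). The other P28 controls (38379.5 and 67196.5) lie above every P28 dM1/2 library (12751 to 20834). Leaving out P28 control 3 thus widens the difference in these markers between the genotypes. Its part in falls called at P28 only without that library was not tested. In bulk RNA, fewer cells of a type and less RNA per cell cannot be told apart.

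All 10 growth factor and receptor genes passed the filter on low values (mean over the fitted libraries of 10 normalized reads or more) in every comparison. At P24, Pdgfrb and Hgf fell in dM1/2, which is 2 of 10 members against 26.6% of all genes tested. At P28, Hgf, Pdgfra and Vegfc fell, which is 3 of 10 against 35.5% of all genes. No member rose at either age. These shares are near the shares over all genes, so the counts say nothing particular about the members, and the values of each gene carry the description. At P20, limma called 0 of 10 members, against 0.433% of all genes. An unadjusted p under 0.05 was found for 3 members (Pdgfc, Pdgfd and Vegfc), against 2735 of all 13845 genes tested. EdgeR and DESeq2 called 0 as well. At P60, limma called 0 members, against 0% of all genes, and edgeR and DESeq2 again called 0. There 2 members (Pdgfc and Hgf) had an unadjusted p under 0.05 (limma), against 525 of all 14042 genes tested. Over all genes DESeq2 called 26 at P60. Without P20 control 1 the P20 count of members became 2 (Pdgfd and Figf), where calls over all genes went from 60 to 1530.

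**Figure D1:**
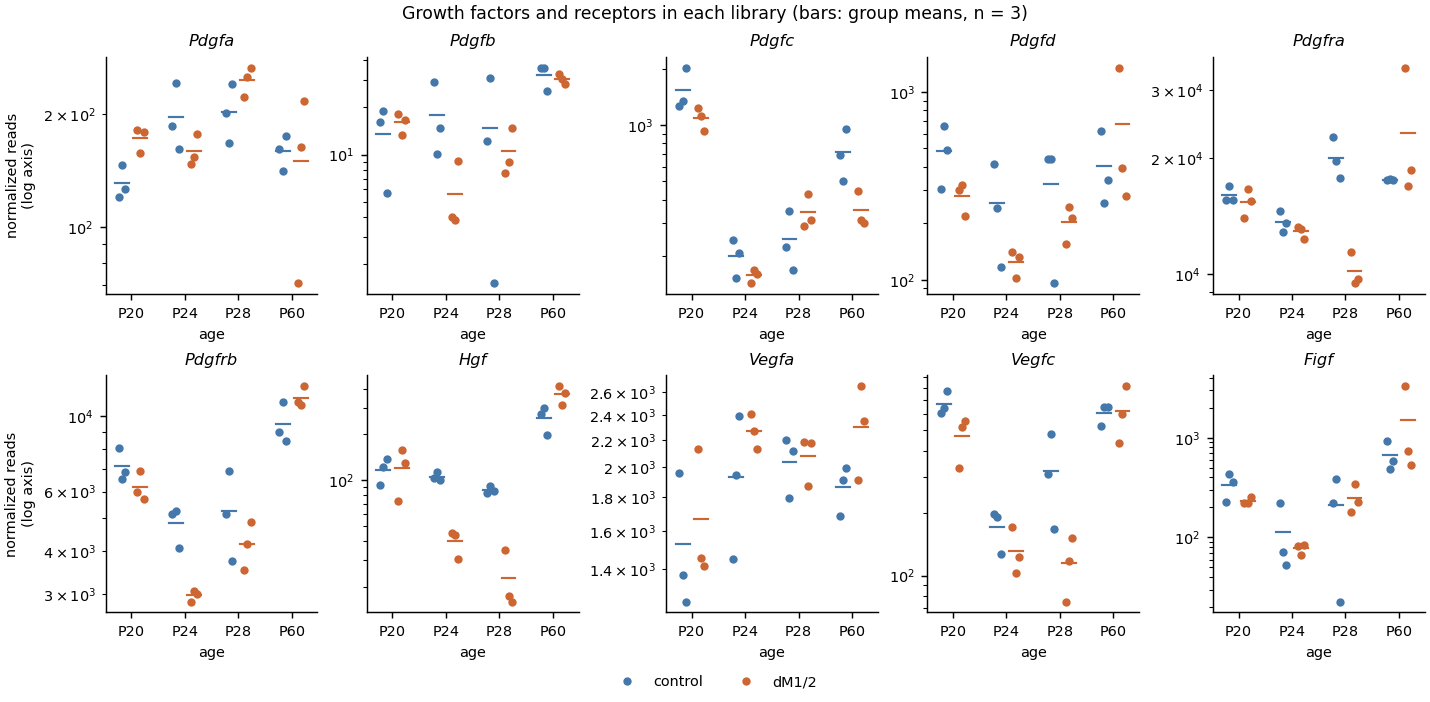
Normalized reads of each of the 10 genes (log axis) at P20, P24, P28 and P60, with each point a library, controls and dM1/2 side by side and a bar at each group mean (3 libraries). Hgf lies between 82.6 and 91.6 in P28 controls and between 16.1 and 35.0 in P28 dM1/2, and Pdgfra between 17735 and 22684 against 9495 and 11416.

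On the scale of normalized reads per kb of exon, which allows levels of different genes to be compared, the receptors stood at the top. By group means Pdgfra was first and Pdgfrb second in all 8 groups, and Vegfa came next except in P60 dM1/2, where the mean of Figf was higher (631 per kb against 537) through P60 dM1/2 1 (1365). The other 2 libraries of that group have less Figf per kb than any of its libraries has Vegfa (445 to 619), so without that library Vegfa comes next there too. In the same group Pdgfra is above Pdgfrb through that library alone (3409 per kb), since in the other 2 Pdgfra lies below every Pdgfrb library. In P28 controls the level per kb was 1999 for Pdgfra, 962 for Pdgfrb, 475 for Vegfa and 130.2 for Vegfc, down to 12.02 for Hgf and 3.56 for Pdgfb. In P28 dM1/2 it was 1018 for Pdgfra, 766 for Pdgfrb, 485 for Vegfa, 46.9 for Vegfc, 3.18 for Hgf and 2.53 for Pdgfb. The 5 genes between Vegfa and Hgf in the order of P28 controls (Vegfc, Pdgfd, Figf, Pdgfa and Pdgfc) each overlapped the next between libraries, as did Figf, Pdgfa, Pdgfc, Pdgfd and Vegfc, in that order, in P28 dM1/2. In P20 controls the order after the receptors was Vegfa, Pdgfc, Vegfc, Pdgfd, Figf, Pdgfa, Hgf and Pdgfb, in P24 controls Vegfa, Pdgfd, Vegfc, Pdgfa, Figf, Pdgfc, Hgf and Pdgfb, and in P60 controls Vegfa, Figf, Vegfc, Pdgfc, Pdgfd, Pdgfa, Hgf and Pdgfb. Libraries of Pdgfra and Pdgfrb overlapped at P60 in both genotypes, and those of Pdgfrb and Vegfa in P24 dM1/2. Pdgfb was last in every group, and Hgf was next to last except in P60 dM1/2, where it passed Pdgfa with overlap. Hgf and Pdgfb overlapped in P28 dM1/2 and in no other group.

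The 3 members that fell at P28 are shown by their promoters, since they moved in the same direction there, with 250 bases before and 50 after the annotated start, read 5′ to 3′ on the strand of the gene from RefSeq (GRCm38.p6). Of the 10 members, 8 have an entry in the promoter table. The windows are chr5:16553245-16553544 for Hgf (plus strand, the first of 2 windows of this gene), chr5:75152001-75152300 for Pdgfra (plus strand) and chr8:54077282-54077581 for Vegfc (plus strand). Capitals mark matches to GGGCGG (GC box) and CANNTG (E-box), searched on both strands, so that CCGCCC is marked too.
Hgf: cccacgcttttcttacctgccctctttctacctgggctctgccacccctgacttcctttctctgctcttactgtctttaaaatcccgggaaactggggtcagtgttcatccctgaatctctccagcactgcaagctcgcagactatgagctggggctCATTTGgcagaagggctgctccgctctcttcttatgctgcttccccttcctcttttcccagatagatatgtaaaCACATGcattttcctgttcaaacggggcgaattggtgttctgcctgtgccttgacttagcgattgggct
Pdgfra: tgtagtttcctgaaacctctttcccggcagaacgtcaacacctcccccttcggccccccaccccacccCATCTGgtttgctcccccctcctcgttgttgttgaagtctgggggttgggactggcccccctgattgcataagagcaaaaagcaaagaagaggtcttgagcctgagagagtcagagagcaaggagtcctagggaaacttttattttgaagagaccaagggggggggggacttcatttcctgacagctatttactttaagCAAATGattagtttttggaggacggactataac
Vegfc: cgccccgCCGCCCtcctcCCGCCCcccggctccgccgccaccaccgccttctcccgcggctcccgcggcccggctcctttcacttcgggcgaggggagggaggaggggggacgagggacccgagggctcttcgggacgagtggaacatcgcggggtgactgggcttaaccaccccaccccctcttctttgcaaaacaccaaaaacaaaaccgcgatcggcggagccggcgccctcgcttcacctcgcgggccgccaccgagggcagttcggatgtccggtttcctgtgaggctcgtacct
The motifs were searched after the values were seen. The Hgf window shown holds 7 CG dinucleotides, no GC box and 2 E-boxes, while the other Hgf window (chr5:16553651-16553950) holds 6 CG dinucleotides, no GC box and no E-box. That of Pdgfra holds 5 CG dinucleotides, no GC box and 2 E-boxes. The Vegfc window holds 35 CG dinucleotides, 2 GC boxes and no E-box. None of the 3 windows holds TATAAA, the letters of the TATA box, or ACGTG, the core of the hypoxia response element. Over all 32851 promoter windows of this length the median is 7 CG dinucleotides, and 35.7% hold GGGCGG, 72.3% CANNTG, 13.6% TATAAA and 19.6% ACGTG. The Hgf, Pdgfra and Vegfc windows thus differ in their CG content and share no match that this search found in all of them.

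Among the PDGF ligands, limma with all libraries called none in dM1/2 at any age, and DESeq2 called Pdgfb and Pdgfd lower at P24. Pdgfc, whose product needs cleavage of its CUB domain and then binds Pdgfra (ENSMUSG00000028019, chr3:81036416-81214040), had 1259, 1345 and 2019 normalized reads in P20 controls and 1235, 1119.8 and 934 in P20 dM1/2, and at P60 693, 505 and 957 in controls and 447, 312 and 299 in dM1/2. At these telogen ages all 3 dM1/2 libraries lie below all 3 controls. In anagen Pdgfc had 243, 152 and 208 in controls and 143, 168 and 161 in dM1/2 at P24, and 224, 349.7 and 168 in controls and 288, 431 and 309.9 in dM1/2 at P28, where the groups overlap. The log2 fold changes were -0.47 ± 0.19 at P20 (limma, unadjusted p = 0.0332, adjusted p = 0.211), -0.33 ± 0.20 at P24, 0.51 ± 0.29 at P28 and -1.0004 ± 0.27 at P60 (unadjusted p = 0.00563, adjusted p = 0.986). Without P28 control 2, the P28 value of Pdgfc became 0.79 (adjusted p = 0.0387), a rise, and without P28 control 3 it was 0.27.

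Pdgfd, a ligand that is also cleaved and binds mainly Pdgfrb (ENSMUSG00000032006, chr9:6168584-6378850), was high or low in single libraries. It had 303, 657 and 490.4 in P20 controls and 300.1, 319 and 218 in P20 dM1/2, and at P24 413, 242 and 117 in controls and 141, 103 and 132 in dM1/2. The P28 values were 439, 440.0 and 95.9 in controls and 155, 243 and 214 in dM1/2, and those of P60 619, 255 and 339 in controls and 1343, 395 and 280.1 in dM1/2. Groups overlap at every age, with P24 control 3 and P28 control 3 far below the other controls and P60 dM1/2 1 far above all. The log2 fold change was -0.40 ± 0.59 at P28 (limma, adjusted p = 0.639). Without P28 control 3, the library lowest in markers of other fibroblasts, Pdgfd fell (-1.13, limma adjusted p = 0.00510). At P24 the log2 fold change was -0.87 (adjusted p = 0.165), against -1.34 without P24 control 3 (adjusted p = 0.00941) and -1.05 by DESeq2 (adjusted p = 0.0390). At P20 the value was -0.74 (adjusted p = 0.182), and -1.04 without P20 control 1 (adjusted p = 0.0235).

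Pdgfa, which encodes the A chain that binds Pdgfra (ENSMUSG00000025856, chr5:138976014-138997370), stayed between 70.7 and 266 in the 24 libraries. At P20 the 3 controls had 121, 146 and 126 and the 3 dM1/2 libraries 182, 157 and 179, which do not overlap, with a log2 fold change of 0.40 ± 0.18 (limma, adjusted p = 0.259). It was -0.29 ± 0.19 at P24 and 0.29 ± 0.18 at P28 (adjusted p = 0.252), or 0.42 without P28 control 3. Pdgfb, whose B chain binds either receptor and is known from endothelium (ENSMUSG00000000489, chr15:79995874-80014977), was the lowest member, between 1.52 and 35.7. Its P24 values were 29.0, 10.04 and 14.7 in controls and 4.00, 3.81 and 9.13 in dM1/2, with every dM1/2 library below every control. The log2 fold change there was -1.47 ± 0.58 (limma, adjusted p = 0.0992), and -1.68 by DESeq2 (adjusted p = 0.049999). At P28 it was 0.13 (adjusted p = 0.931), and -0.88 without P28 control 3 (adjusted p = 0.257), not called either way.

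Of the 2 PDGF receptors, Pdgfra fell at P28 and Pdgfrb at P24. Pdgfra (ENSMUSG00000029231, chr5:75152292-75198215), the receptor for PDGF-A and PDGF-C and a marker of dermal fibroblasts, had 22684, 19686 and 17735 normalized reads in P28 controls and 11416, 9495 and 9716 in P28 dM1/2. At P24 it had 14593, 12860.3 and 13582 in controls and 13236, 13135 and 12382 in dM1/2. The P28 dM1/2 libraries are all below every P28 control and also below every P24 library, while the P24 groups overlap. The fall at P28 was -0.97 ± 0.19 on the log2 scale (95% confidence interval -1.42 to -0.52, limma adjusted p = 0.00821, 3 of 3 libraries lower), and -1.05 without P28 control 3 (adjusted p = 0.00410). At P24 the log2 fold change was -0.08 ± 0.14 (adjusted p = 0.716). In telogen Pdgfra had 15529, 16917 and 15565 in P20 controls and 14021, 16663 and 15439.6 in P20 dM1/2, and at P60 17512, 17665 and 17488 in controls and 34175, 16886 and 18662 in dM1/2. P60 dM1/2 1 holds more Pdgfra than any other library, and the other telogen libraries lie between 14021 and 18662 and overlap at both ages.

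Pdgfrb (ENSMUSG00000024620, chr18:61045150-61085061), the receptor for PDGF-B and PDGF-D that marks pericytes and fibroblasts, had 5138, 5264 and 4094 in P24 controls and 2847, 3069 and 3004 in P24 dM1/2. All 3 dM1/2 libraries lie below all 3 controls. The log2 fold change was -0.69 ± 0.13 (95% confidence interval -1.01 to -0.38, limma adjusted p = 0.00972). At P28 Pdgfrb had 5154, 6905 and 3757 in controls and 3515, 4201 and 4867 in dM1/2. These overlap through P28 control 3, with -0.30 ± 0.25 (adjusted p = 0.390) and -0.52 without that library (adjusted p = 0.0703). Telogen values were 8040.4, 6549.7 and 6826 in P20 controls and 5978, 6881 and 5704 in P20 dM1/2, and 9003, 10970.4 and 8443 in controls and 10982, 10749 and 12242 in dM1/2 at P60. They overlap at P20 and at P60, and P60 dM1/2 holds the highest value of Pdgfrb in the series.

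Hgf was lower in dM1/2 at both anagen ages, with every dM1/2 library below every control. At P24 the controls had 103, 114 and 100.4 normalized reads of Hgf (ENSMUSG00000028864, chr5:16553495-16620152) and dM1/2 had 45.1, 43.8 and 30.4. At P28 the controls had 82.6, 91.6 and 84.9 and dM1/2 had 35.0, 17.6 and 16.1. The control libraries of these ages lie close together, P28 control 3 included, and the lowest dM1/2 values are those of P28 dM1/2 2 and 3. The fall was -1.41 ± 0.23 at P24 (95% confidence interval -1.95 to -0.86, limma adjusted p = 0.00558) and -1.96 ± 0.34 at P28 (-2.77 to -1.14, adjusted p = 0.00561). With P28 control 3 left out, the log2 fold change of Hgf at P28 was -1.97 (adjusted p = 0.00691). In telogen the P20 controls had 93.7, 122 and 138 and P20 dM1/2 72.8, 157 and 129, and the P60 controls 271, 300.3 and 198 and P60 dM1/2 414, 314 and 377. The P20 groups overlap, while all 3 P60 dM1/2 libraries lie above all 3 P60 controls, with a log2 fold change of 0.53 ± 0.22 (limma, unadjusted p = 0.0392, adjusted p = 0.986). A transcript annotated on the same strand, Gm43489, overlaps Hgf, and the deposited values do not separate them.

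Of the VEGF ligands, Vegfc fell at P28. Vegfc (ENSMUSG00000031520, chr8:54077606-54187096), the main growth factor of lymphatic vessels, had 309.7, 479.7 and 167 normalized reads in P28 controls and 75.1, 117 and 152 in P28 dM1/2. P28 control 3 is the lowest control, close above P28 dM1/2 3, and the groups do not overlap. The log2 fold change was -1.40 ± 0.43 (95% confidence interval -2.40 to -0.39, limma adjusted p = 0.0414), and -1.80 without P28 control 3 (adjusted p = 0.00419). The call was lost without any other single P28 library: the adjusted p was 0.114 without control 1, 0.0754 without control 2 (log2 fold change -1.04), 0.1298 without dM1/2 1 (-1.12), 0.107 without dM1/2 2 and 0.0575 without dM1/2 3. With the replicate number as a block it was 0.0695. At P24 Vegfc had 198, 191 and 127 in controls and 171, 102 and 123 in dM1/2, which overlap. In P20 it had 608, 638 and 772 in controls and 329.7, 520.1 and 559 in dM1/2, which do not (-0.55 ± 0.20, unadjusted p = 0.0241, adjusted p = 0.189). P60 values were 523, 651 and 648 in controls and 437, 598 and 817 in dM1/2, which overlap.

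Vegfa (ENSMUSG00000023951, chr17:46016993-46032369), the main growth factor of blood vessels, was not called at any age. It stayed between 1250.5 and 2653 in the 24 libraries. The group means (± SD) were 1929 ± 468 in P24 controls and 2268 ± 137 in P24 dM1/2, and 2037 ± 215 in controls and 2077 ± 177 in dM1/2 at P28. The log2 fold change was 0.26 ± 0.18 at P24 (limma, adjusted p = 0.334) and 0.03 ± 0.13 at P28 (adjusted p = 0.883, 95% confidence interval -0.28 to 0.34), or 0.06 without P28 control 3. Figf (ENSMUSG00000031380, chrX:164373378-164402650), a second ligand of Flt4, had 224, 389 and 22.8 in P28 controls and 182, 345 and 227 in P28 dM1/2. At P60 it had 936, 491 and 590.2 in controls and 3287, 737 and 532 in dM1/2. P28 control 3 is far below and P60 dM1/2 1 far above the other libraries of their ages, and the groups overlap. At P28 the log2 fold change of Figf was 0.93 (95% confidence interval -1.38 to 3.23, limma adjusted p = 0.4996), and -0.28 without P28 control 3 (adjusted p = 0.514). Its P60 value of 0.75 became -0.05 without P60 dM1/2 1, and its P24 value of -0.28 became 0.34 without P24 control 1. Without P20 control 1, Figf fell at P20 (-0.76, adjusted p = 0.0275), against -0.50 (adjusted p = 0.263) with all libraries.

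**Figure D2:**
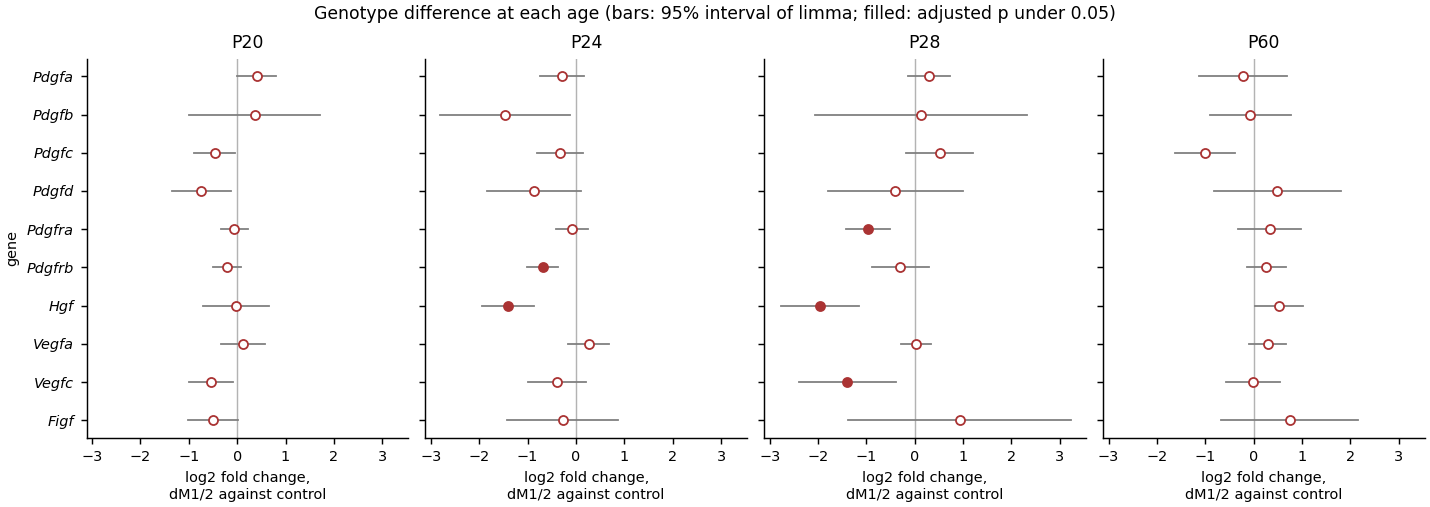
Log2 fold change of each of the 10 genes, dM1/2 against control, at the 4 ages (horizontal axis, log2), with bars for the 95% confidence interval of limma and filled points for an adjusted p under 0.05. The filled points are Pdgfrb (-0.69) and Hgf (-1.41) at P24 and Hgf (-1.96), Vegfc (-1.40) and Pdgfra (-0.97) at P28.

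The genotype effect in anagen differed from that in telogen for 4 of 10 members, against 30.2% of all genes, in a limma fit over all 24 libraries (Benjamini-Hochberg). For Hgf, Pdgfra and Pdgfrb it was lower in anagen, and for Pdgfc higher. The difference was -1.93 ± 0.29 for Hgf (adjusted p = 8.69e-05), -0.66 ± 0.19 for Pdgfra (adjusted p = 0.0127), -0.52 ± 0.18 for Pdgfrb (adjusted p = 0.0312) and 0.83 ± 0.27 for Pdgfc (adjusted p = 0.0262). For Hgf the 4 ages ran -0.03, -1.41, -1.96 and 0.53 from P20 to P60, and for Pdgfc -0.47, -0.33, 0.51 and -1.0004. The Hgf and Pdgfra calls were kept without any single library. That of Pdgfrb was lost without any of 9 single libraries (P20 control 2 and 3, P20 dM1/2 2, P24 control 1 and 2, P24 dM1/2 1, P28 control 2, P28 dM1/2 1 or P60 control 3, adjusted p = 0.0501 to 0.0591) and with the replicate number as a block (adjusted p = 0.0725), and that of Pdgfc without P20 control 3, P24 control 2, P28 dM1/2 2 or P60 control 3 (adjusted p = 0.0536 to 0.0545). At an adjusted p under 0.01 only Hgf of these 4 was called. Without P28 control 3, Vegfc was called too (-0.81, adjusted p = 0.0429), against -0.61 (adjusted p = 0.181) with all libraries.

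Between the anagen ages, the genotype effect at P28 minus that at P24 was called for 0 of 10 members by limma, against 0.707% of all genes, and for 0 by edgeR. An unadjusted p under 0.05 (limma) was found for 3 members, against 1680 of all 14139 genes tested. DESeq2 called Pdgfra (-0.91, adjusted p = 1.06e-04), where limma gave -0.89 ± 0.21 (adjusted p = 0.0867). The values above 0 were 1.60 ± 1.13 for Pdgfb, 1.21 ± 1.21 for Figf, 0.84 ± 0.38 for Pdgfc, 0.59 ± 0.26 for Pdgfa, 0.47 ± 0.80 for Pdgfd and 0.39 ± 0.29 for Pdgfrb. Those below 0 were, beside Pdgfra, -1.01 ± 0.54 for Vegfc, -0.55 ± 0.41 for Hgf and -0.23 ± 0.23 for Vegfa, and the median of all 10 was 0.43 against 0.03 over all genes. This median is given with all libraries only. When single libraries were left out, the values ranged from -0.0069 to 2.01 for Figf, -0.26 to 0.94 for Pdgfd and 0.59 to 2.42 for Pdgfb. Of the members, Figf and Pdgfd alone changed sign.

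Across the 4 ages in controls, 5 of 10 members varied (limma with an F test, Benjamini-Hochberg), against 49% of all genes. Pdgfc had the widest span of these, 2.92 on the log2 scale between its highest and lowest age (adjusted p = 1.70e-04), from a mean (± SD) of 1541 ± 416 at P20 to 201 ± 46.0 at P24. Vegfc spanned 1.98 (adjusted p = 0.00168), with 673 ± 87.0 at P20 and 172 ± 39.1 at P24. Hgf spanned 1.54 (adjusted p = 8.40e-04), with 256 ± 52.5 at P60 and 86.4 ± 4.64 at P28. Pdgfrb spanned 0.97 (adjusted p = 0.00983) and Pdgfra 0.55 (adjusted p = 0.0492). The Pdgfra call was kept without P28 control 3 and lost without any other single control library. It was also lost with a pseudocount of 10, with no filter on low values and with the replicate number as a block, and Figf was called with that pseudocount, with that block, by DESeq2 and without P24 control 1, P28 control 2 or P28 control 3. Pdgfa was called without P24 control 3 or P28 control 2. Telogen and anagen libraries also differ in sex, depth and cell markers, which cannot be told apart from age. The 15 DP markers summed to 32526, 30076 and 33594 normalized reads in P20 controls and 17611, 19974 and 23641 in P60 controls, against 149784 to 437955 in anagen controls, and in each telogen control the 8 markers of other fibroblasts sum to more than the DP markers. The part of these cells in the age values was not tested.

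In dM1/2, 8 of 10 members varied over the ages, against 59.9% of all genes, all but Pdgfa and Vegfa. Vegfa was called without P20 dM1/2 1, Pdgfa without P60 dM1/2 3 and both without P60 dM1/2 1. Hgf had the widest span, 4.03 (limma, adjusted p = 7.54e-06), from a mean (± SD) of 368 ± 50.4 at P60 to 22.9 ± 10.5 at P28. Figf spanned 3.80 (adjusted p = 3.43e-04), Pdgfc 2.79 (adjusted p = 3.04e-06), Vegfc 2.43 (adjusted p = 5.24e-05) and Pdgfb 2.33 (adjusted p = 0.00371). Pdgfd spanned 2.09 (adjusted p = 0.00840), Pdgfrb 1.93 (adjusted p = 2.40e-06) and Pdgfra 1.12 (adjusted p = 0.00635). For Pdgfd, Figf and Pdgfra the highest age is P60, where P60 dM1/2 1 stands apart. It has 1343, 3287 and 34175 normalized reads, against group medians of 395, 737 and 18662. Their spans are given with that library only, and each was called without it too.

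Markers of other fibroblasts differed between libraries, and several members were high or low in the same libraries. The 8 markers (Dpp4, Dlk1, Dpt, Ly6a, Cd34, Lrig1, Pi16 and Mfap5) summed to 38379.5, 67196 and 5326 normalized reads in P28 controls and 12751, 20834 and 18546 in P28 dM1/2. At P24 the sums were 36334, 16625 and 8653 in controls and 15115, 10047 and 13693 in dM1/2. P28 control 3, which had the lowest P28 values of Pdgfd and Figf, has the lowest sum of all 24 libraries, and P24 control 1, the highest P24 library for Pdgfd and Figf, has the highest P24 sum. In telogen the sums were 59288, 94531 and 75423 in P20 controls and 48415, 55739.6 and 40935 in P20 dM1/2, and 101964, 84653 and 83623 in controls and 177745, 85161 and 84664 in dM1/2 at P60. P60 dM1/2 1, where Pdgfra, Pdgfd, Figf and Hgf were highest, has the highest sum of the series. The same library has the highest sum of vascular endothelial markers (6409.9, with Tek the most abundant at 5112) and of adipocyte markers (15208, with Lpl the most abundant at 14478). Cd34 or Dpt was the most abundant marker in each library and none was at 0. At P28, 1 of 8 rose (Dlk1) and none fell, against 35.5% of all genes called, with a median log2 fold change of -0.37. At P20, P24 and P60 none was called. Hgf was 84.9 in P28 control 3, between the other P28 controls, and 414 in P60 dM1/2 1. The part of these cells in the values of Pdgfd, Figf, Vegfc, Hgf and Pdgfra was not tested.

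**Figure D3:**
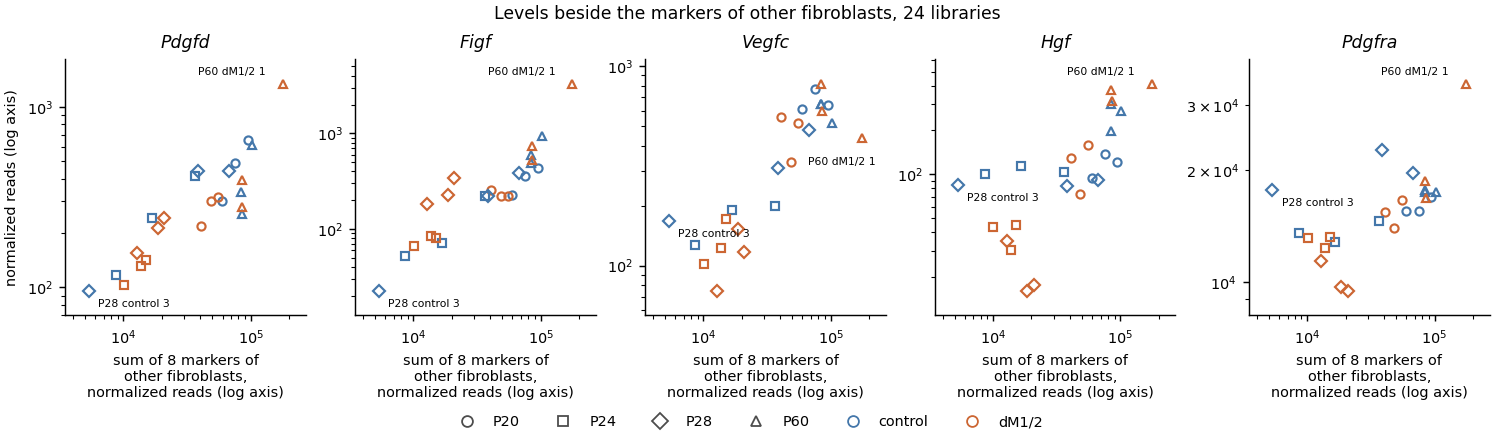
Normalized reads of Pdgfd, Figf, Vegfc, Hgf and Pdgfra (vertical axes, log) against the summed level of 8 markers of other fibroblasts (horizontal axis, log), a point for each of the 24 libraries, with colours for genotype and shapes for age. P28 control 3 has the lowest sum (5326) and P60 dM1/2 1 the highest (177745), with Figf at 22.8 and 3287.

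Markers of the DP and of adipocytes also differed between genotypes in anagen. Of 15 DP markers, 3 rose and 7 fell at P24, and at P28 4 rose (Bmp4, Prom1, Sox18 and Sox2) and 5 fell (Corin, Rspo3, Fgf10, Fgf7 and Rspo2). Beside these counts and the marker counts below, 26.6% of all genes were called at P24 and 35.5% at P28. Their sum was 272629, 149784 and 437955 in P28 controls and 139554, 122976 and 134509 in P28 dM1/2, where P28 control 3 has the highest value. At P24 it was 307540.0, 324425 and 368403 in controls and 172443, 194589 and 157937 in dM1/2. In telogen dM1/2 it was 51335, 36729 and 46977 at P20 and 17102, 15758 and 21409 at P60. Of 4 adipocyte genes tested at P28, 3 fell (Pparg, Lpl and Plin1), with a sum over 6 genes of 13926, 13168 and 5839 in controls and 2787, 2899.8 and 2733 in dM1/2 and Lpl the most abundant. Cidec was 0 in P28 control 2, P28 dM1/2 2 and P28 dM1/2 3, and Adipoq in P28 dM1/2 2. Of the remaining lists, Itga8 of the dermal sheath fell at P24 and P28 (1 of 7 genes), and at P24 2 of 8 keratinocyte genes (Epcam and Krt1), 2 of 4 Schwann cell genes (Ngfr and S100b), 1 of 5 immune genes (Cd68) and 1 of 4 adipocyte genes (Plin1) fell. At P24, Notch3 of 5 pericyte genes tested and Prox1 of 4 lymphatic genes tested rose. Their part in the falls of Pdgfra, Pdgfrb, Hgf and Vegfc was not tested.

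Among the related ligands and receptors, which include the partners of the secreted factors, some rose in dM1/2 in anagen, at shares near those over all genes. At P24, 2 of 9 genes tested rose, against 26.6% of all genes called, and none fell (median log2 fold change -0.04 against -0.01 over all genes), and at P28 4 of 9 rose, against 35.5% of all genes called, and none fell (0.12 against 0.00). At P20 and P60, limma with all libraries called none of 8. Flt1, a receptor of VEGF-A, had 77.4, 25.6 and 3.41 normalized reads in P28 controls and 677, 647 and 709 in P28 dM1/2, and at P24 64.2, 56.7 and 77.4 in controls and 386, 194 and 184 in dM1/2. All dM1/2 libraries of both ages lie above all controls, and P28 control 3 is the lowest library. The rise was 5.02 ± 0.94 at P28 (limma, adjusted p = 0.00709), 3.89 without P28 control 3, and 1.86 ± 0.31 at P24 (adjusted p = 0.00538). At P20 Flt1 had 179, 122 and 135 in controls and 423, 308 and 264 in dM1/2, again all higher. It was not called there by limma (1.18, adjusted p = 0.0578), but was called by DESeq2 (1.2003, adjusted p = 0.00164), with the replicate number as a block (adjusted p = 0.0259) and without P20 control 1 (1.34, adjusted p = 0.0174). Flt4, the receptor of VEGF-C and VEGF-D, had 3.91, 3.20 and 1.52 in P28 controls and 26.0, 17.1 and 31.3 in P28 dM1/2, with all dM1/2 libraries above all controls (2.75 ± 0.49, adjusted p = 0.00597, and 2.47 without P28 control 3). At P24 DESeq2 called Flt4 (1.40, adjusted p = 0.0407) and limma did not (adjusted p = 0.0792).

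Vegfb, a further ligand of Flt1, had 319.7, 191 and 360.3 in P28 controls and 567, 640.2 and 548 in P28 dM1/2, and at P24 246, 263 and 233 in controls and 548, 538 and 703 in dM1/2. Every dM1/2 library lies above every control at each of these ages (log2 fold change 1.05 ± 0.24, limma adjusted p = 0.0156 at P28, and 1.26 ± 0.15, adjusted p = 0.00198 at P24). With P28 control 3 left out, the P28 value was 1.23. The P28 call was lost without P28 dM1/2 2 (adjusted p = 0.0665). Pgf, the placental growth factor that also binds Flt1, had 63.9, 91.6 and 52.3 in P28 controls and 145, 178 and 184 in P28 dM1/2, which do not overlap (1.30 ± 0.25, adjusted p = 0.00824, and 1.12 without P28 control 3). At P24 Pgf was not called by limma with all libraries (-1.18, adjusted p = 0.153), and fell by DESeq2 (-1.41, adjusted p = 0.0194) and without P24 control 3 (-1.86, adjusted p = 0.00269). Met, the receptor of HGF, had 281, 178 and 24.3 in P28 controls and 59.7, 54.0 and 55.0 in P28 dM1/2. It was not called with all libraries (-0.92, adjusted p = 0.431) and fell without P28 control 3 (-1.97, adjusted p = 0.00102). Nrp1, a co-receptor of VEGF, had 1114, 2384 and 149 in P28 controls and 706, 733 and 919 in dM1/2, with 0.09 with all libraries and -1.06 (adjusted p = 0.0245) without P28 control 3.

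**Figure D4:**
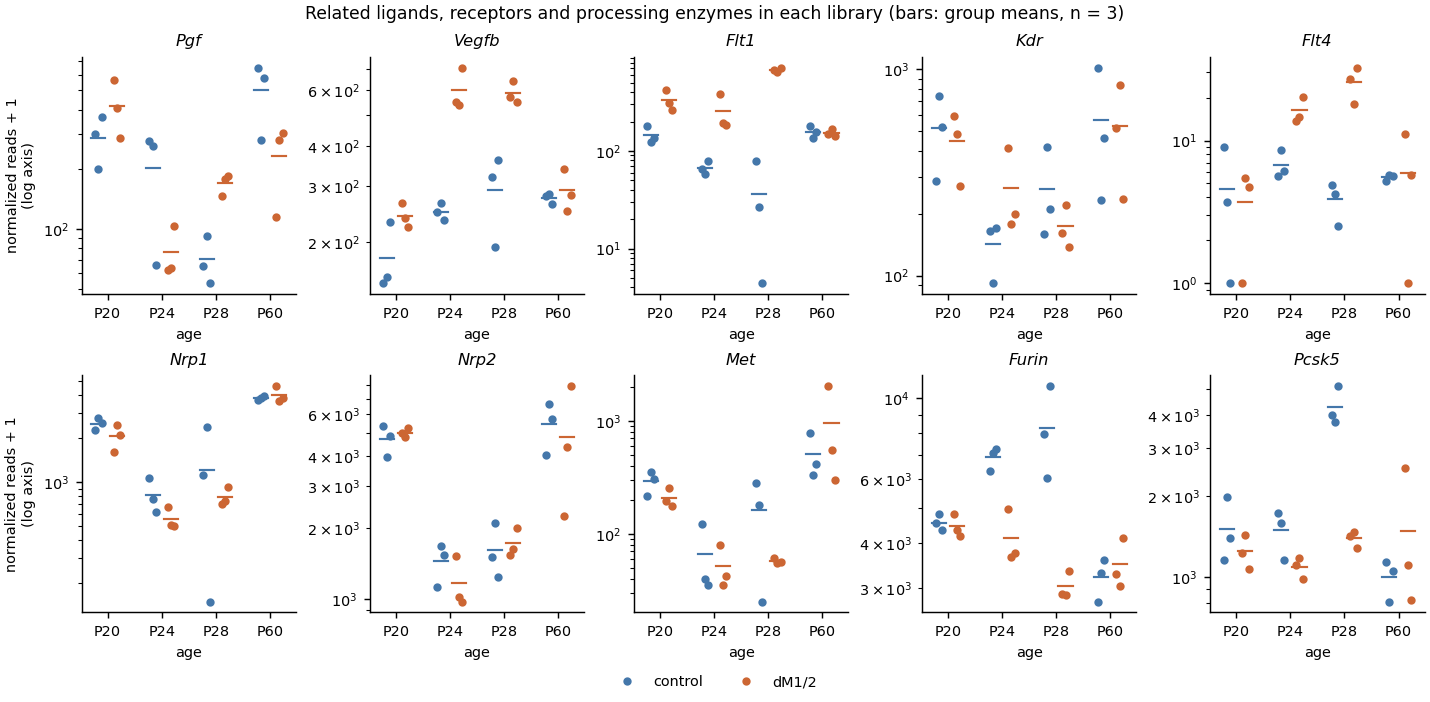
Normalized reads plus 1 (log axis) of Pgf, Vegfb, Flt1, Kdr, Flt4, Nrp1, Nrp2, Met, Furin and Pcsk5 at the 4 ages, with each point a library, controls and dM1/2 side by side and a bar at each group mean (3 libraries). Flt1 lies between 3.41 and 77.4 in P28 controls and between 647 and 709 in P28 dM1/2.

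Flt1 and Flt4 are also markers of vessels, so those lists are given beside them. The 10 vascular endothelial genes summed to 1751, 1452 and 429 in P28 controls and 1268, 1249.5 and 1420.0 in P28 dM1/2. Tek was the most abundant of them in P28 controls 1 and 2, Kdr in control 3 and Flt1 in all 3 dM1/2 libraries. Of 8 tested at P28, Flt1 alone rose and none fell (median 0.08), and the endothelial genes Pecam1 (125, 24.3 and 22.0 in controls, 37.1, 20.6 and 120.4 in dM1/2) and Cdh5 (131, 42.3 and 19.0 in controls and 33.7, 17.6 and 77.5 in dM1/2) overlapped between the groups. Cldn5 was 0 in P28 control 2 and 3 and Emcn 0 in P28 control 3. At P24, 2 of these 8 rose (Egfl7 and Flt1) and Pecam1 fell. The 5 lymphatic genes summed to 139.6, 167 and 72.8 in P28 controls and 389, 256 and 329.6 in P28 dM1/2. Of 4 tested, 2 rose (Prox1 and Flt4). Over all genes, 26.6% were called at P24 and 35.5% at P28. Prox1, a lymphatic transcription factor, had 36.5, 50.6 and 35.6 in P28 controls and 299, 200.1 and 199.5 in P28 dM1/2 and was the most abundant gene of the list in all 3 of these dM1/2 libraries and in control 3, with Reln the most abundant in controls 1 and 2. Ccl21a was 0 in P28 controls 1 and 3 and in P28 dM1/2 1 and 3. The part of vessel cells in the values of Flt1 and Flt4 was not tested.

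The proteases that cleave the PDGF, HGF and VEGF precursors, and their inhibitors, had 0 rises and 1 fall of 10 genes tested (16 listed) at P20, 0 rises and 2 falls of 10 at P24, and 1 rise and 2 falls of 10 at P28, against 0.433%, 26.6% and 35.5% of all genes called. The median log2 fold change was -0.39 at P20, -0.47 at P24 and -0.34 at P28, against -0.01, -0.01 and 0.00 over all genes. Furin, a proprotein convertase that cleaves VEGF-C, VEGF-D and PDGF precursors, had 7967, 6044 and 10789 normalized reads in P28 controls and 2885, 2868 and 3355 in P28 dM1/2, and at P24 6326, 7051 and 7257 in controls and 4963, 3666 and 3743 in dM1/2. All dM1/2 libraries lie below all controls at both ages (-1.41 ± 0.22, limma adjusted p = 0.00385 at P28, and -0.75 ± 0.16, adjusted p = 0.0123 at P24). The P28 value of Furin was -1.20 without P28 control 3. Pcsk5, a convertase of the same family, had 3993, 3760.0 and 5110.2 in P28 controls and 1420.4, 1469 and 1281 in P28 dM1/2, again with no overlap (-1.61 ± 0.15, adjusted p = 6.58e-04, and -1.48 without P28 control 3).

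Pcsk6, a further convertase, had 1602, 3030.0 and 1253 in P20 controls and 173, 332 and 233 in P20 dM1/2, all lower (-2.94 ± 0.32, limma adjusted p = 0.0163), a call lost without P20 dM1/2 1 (adjusted p = 0.0569) or 3 (0.0860) and in a single fit over all libraries (0.0773). Spint2, an inhibitor of the HGF activator, had 54.9, 53.2 and 45.7 in P24 controls and 23.6, 15.2 and 13.5 in P24 dM1/2 (-1.54 ± 0.31, adjusted p = 0.0117). At P28 Spint2 was not called (-1.64 ± 0.55, limma adjusted p = 0.0578), with all 3 dM1/2 libraries below all controls. It was called lower at P28 by DESeq2 (adjusted p = 0.0417), and by limma with a pseudocount of 10 (0.0413), in a single fit over all libraries (0.0271) and without P28 dM1/2 3 (0.0289). Without P24 control 2 the P24 calls of Furin and Spint2 were lost (adjusted p = 0.0502 and 0.0540), and that of Spint2 in a single fit over all libraries too (0.0547). Adamts3, a protease of the VEGF-C precursor, rose at P28 (0.85 ± 0.19, adjusted p = 0.0140, and 0.91 without P28 control 3), a call lost without P28 dM1/2 3 (0.0578). Without P28 control 3, Plat (-1.14) and Plau (-1.61) were called at P28 too, as falls. Plau, the urokinase gene, had 1387, 1624 and 142 in P28 controls and 442, 578 and 461 in P28 dM1/2, with P28 control 3 below all others. By limma with all libraries, Pcsk5 alone among the genes of these lists had a P28 effect that differed from that at P24 (-1.18 ± 0.23, adjusted p = 0.0499, 0.115 with the replicate number as a block, 0.0559 with no filter on low values), and that call was lost without any single P24 or P28 library but P28 control 2. DESeq2 called a difference between these ages for Pgf (2.67, adjusted p = 0.00271), Lrp1 (-1.13, adjusted p = 6.33e-04) and Slc2a1 (0.70, adjusted p = 0.00374), and limma for Pgf without P24 control 3 (adjusted p = 0.0196).

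Adaptors and enzymes downstream of the receptors had 2 rises and 0 falls of 18 at P24 (median 0.07) and 3 rises and 2 falls of 18 at P28 (median -0.06), against 26.6% and 35.5% of all genes called. From these lists the genes called at P28 by limma are named. Those of P24, with Pgk1 and Ldha at P28 and the genes called at P28 only in alternatives, were named after their values were seen. Nck1 (-0.70, limma adjusted p = 0.0701), Sparc (-0.64, 0.654) and Egln3 (-0.53, 0.438) were among the 3 lowest P28 values of their lists and not called with all libraries. Nck1 was called lower by edgeR, by DESeq2, in a single fit over all libraries and without P28 control 3 (-0.96, limma adjusted p = 0.00438). Pik3r1, a regulatory subunit of PI3 kinase, fell at P28 (19370.3 ± 6533 in controls and 5618 ± 792 in dM1/2, mean ± SD of 3, log2 fold change -1.74 ± 0.27, limma adjusted p = 0.00363). Src fell (-0.58, adjusted p = 0.0155) and the adaptor Shc1 rose (0.62, adjusted p = 0.0117). Gab1, a docking protein of Met, rose at P24 (0.58, adjusted p = 0.00760) and P28 (0.47, adjusted p = 0.0344), the adaptor Nck2 at P24 (0.38, adjusted p = 0.0424) and Rasa1 at P28 (0.32, adjusted p = 0.0472). At P24, alternatives called 2 falls. Src was lower by edgeR (-0.34 with TMM, adjusted p = 0.0408) and DESeq2 (-0.33, adjusted p = 0.00988). Pik3r1 was lower by DESeq2 (-0.85, adjusted p = 0.0320), and by limma in a single fit over all libraries (adjusted p = 0.0371) and without P24 control 3 (-1.15, adjusted p = 0.0116). The calls of Nck2 and Rasa1 were lost without any single library of their age, that of Gab1 at P28 without any but P28 control 2, that of Src without P28 control 1, P28 dM1/2 2 or P28 dM1/2 3, and that of Shc1 without P28 dM1/2 2 (adjusted p = 0.0531). Without P28 control 3 the P28 values were -1.49 for Pik3r1, -0.47 for Src, 0.66 for Shc1, 0.42 for Gab1 and 0.31 for Rasa1. With the replicate number as a block, Shc1, Src, Gab1 and Rasa1 were not called at P28 (adjusted p = 0.0511, 0.0506, 0.0988 and 0.142), nor Nck2 at P24 (0.133). Nck2 and Rasa1 were also lost with no filter on low values (0.0554 and 0.0659) and in a single fit over all libraries (0.158 and 0.0674), and Rasa1 by edgeR with TMM (0.0526) or with the size factors of DESeq2 (0.0641). The P28 count of 5 was 6 by DESeq2 and in a single fit over all libraries, 2 without P28 control 1, 4 without P28 control 2 or 3, 3 without P28 dM1/2 1, 1 without P28 dM1/2 2 and 2 without P28 dM1/2 3. The share of all genes called at P28 moved too. It was 41.3% by DESeq2 and 40.9% in the single fit. Without controls 1, 2 and 3 it was 23.1%, 36.6% and 40.9%, and without dM1/2 1, 2 and 3 it was 29.3%, 21.5% and 23.4%.

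Genes that bind the ligands or assist the receptors had 1 rise and 1 fall of 8 at P24 (median -0.17) and 1 rise and 1 fall of 8 at P28 (median -0.28), where 26.6% and 35.5% of all genes were called. Lrp1, an endocytic receptor that partners with Pdgfrb, fell at P28 (107452 ± 6776 in controls and 31149 ± 2435 in dM1/2, mean ± SD, log2 fold change -1.79 ± 0.31, limma adjusted p = 0.00568, and -1.74 without P28 control 3). Ctgf, a matrix protein that binds VEGF-A, fell at P24 (-1.27, adjusted p = 0.00671), and the heparan sulfate carrier Sdc1 rose (0.78, adjusted p = 0.0203). The Sdc1 call was lost without P24 control 1, P24 control 2 or P24 dM1/2 2 (adjusted p = 0.0570 to 0.0627) and in a single fit over all libraries (0.0728). Cspg4, the NG2 proteoglycan, rose at P28 (0.65, adjusted p = 0.0390, and 0.77 without P28 control 3), lost without P28 control 1, P28 control 2, P28 dM1/2 2 or P28 dM1/2 3 (adjusted p = 0.0789 to 0.136), with the replicate number as a block (0.0751) and in a single fit over all libraries (0.0524). Cspg4 is a pericyte marker too. Of 5 pericyte genes tested at P28, 2 rose (Cspg4 and Notch3), and the sum over 6 genes was 6628, 8024 and 5451 in controls and 8634, 9793 and 10225 in dM1/2, with Notch3 the most abundant in all 3 dM1/2 libraries and Notch3, Rgs5 and Cspg4 in controls 1, 2 and 3, where Higd1b was 0 in control 3. The part of pericytes was not tested. Thbs1, a matrix protein named after its values were seen, had 5941, 8843 and 912 in P28 controls and 4563, 3110.2 and 3929 in P28 dM1/2, with 0.07 with all libraries and -0.92 (adjusted p = 0.0152) without P28 control 3, where the count of this list was 5, with Sdc1 (1.13) and Ctgf (-1.33). It was also 5 by DESeq2, and 3 in a single fit over all libraries. Over all genes, 40.9% were called at P28 without P28 control 3, 41.3% by DESeq2 and 40.9% in that single fit.

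Hypoxia controls Vegfa in many cells, so its regulators and targets were read too. Of 9 regulators, 1 rose (Hif3a, 0.93, limma adjusted p = 0.0228) and 1 fell (Arnt, -0.77, adjusted p = 0.00347) at P24, and at P28 none rose and 2 fell (Arnt, -0.99, adjusted p = 9.29e-04, and Hif1a, -0.50, adjusted p = 0.0226), against 26.6% and 35.5% of all genes called. Arnt encodes the partner subunit of the hypoxia inducible factors. The Hif3a call was lost without P24 control 1, P24 dM1/2 1 or P24 dM1/2 2 (adjusted p = 0.0543 to 0.0721) and in a single fit over all libraries (0.113). Without P28 control 3 the P28 values were -1.01 for Arnt and -0.43 for Hif1a. The Hif1a call was lost without P28 control 1, P28 dM1/2 1 or P28 dM1/2 2, and the count was 4 without P28 control 2 (with Vhl, -0.70, and Hif1an, -0.50) or without P28 control 3 (with Epas1, -0.96, and Egln2, -0.47), 4 in a single fit over all libraries and 3 by DESeq2 or edgeR. Of 15 hypoxia targets, 3 rose at P24 (Ddit4, 0.82, Hk2, 0.88, and Pgk1, 0.66) and none fell (median -0.13), against 26.6% of all genes called. All 3 calls were lost without P24 dM1/2 1 (adjusted p = 0.0585 for Ddit4, 0.0905 for Hk2 and 0.0512 for Pgk1). That of Ddit4 was also lost without P24 dM1/2 3, that of Hk2 without P24 control 2, P24 dM1/2 2 or P24 dM1/2 3, and that of Pgk1 without P24 control 1 or P24 control 2. At P28, 5 of 15 targets rose and 1 fell, against 35.5% of all genes called (median 0.52 against 0.00 over all genes). The glucose transporter gene Slc2a1 rose most (1.14 ± 0.11, adjusted p = 6.58e-04), followed by Pfkfb3 (1.12), Kdm3a (0.92), Pgk1 (0.58) and Ldha (0.53), and Ndrg1 fell (-1.89 ± 0.28, adjusted p = 0.00291). When P28 control 3 was left out, the values were 1.11 for Slc2a1, 0.94 for Pfkfb3, 0.76 for Kdm3a, 0.56 for Pgk1, 0.59 for Ldha and -1.57 for Ndrg1. Adm (-1.78, adjusted p = 0.00206) and P4ha1 (-0.67, adjusted p = 0.0308) were then called too, as falls, for a count of 8. Without P28 control 2 the count was also 8, with rises of Hk2 (0.73, adjusted p = 0.0236) and Ddit4 (1.14, adjusted p = 0.00367), and in a single fit over all libraries it was 7, with Ddit4. The count of 6 became 2 (Ndrg1 and Slc2a1) without P28 control 1, 5 without P28 dM1/2 1, 4 without P28 dM1/2 2 and 3 without P28 dM1/2 3. Beside these counts of both hypoxia lists, the share of all genes called at P28 moved too. Without controls 1, 2 and 3 it was 23.1%, 36.6% and 40.9%, and without dM1/2 1, 2 and 3 it was 29.3%, 21.5% and 23.4%. The single fit gave 40.9%, DESeq2 41.3% and edgeR 34.8% (TMM) or 35.4% (size factors of DESeq2). The calls of Pgk1 and Ldha were lost without P28 dM1/2 2 too, and that of Pfkfb3 without P28 dM1/2 1. With the replicate number as a block, Pgk1 (adjusted p = 0.0547) and Ldha (0.0524) were not called at P28, nor Pgk1 (0.0538) and Ddit4 (0.0555) at P24. Vegfa, itself a hypoxia target, had a log2 fold change of 0.03.

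**Figure D5:**
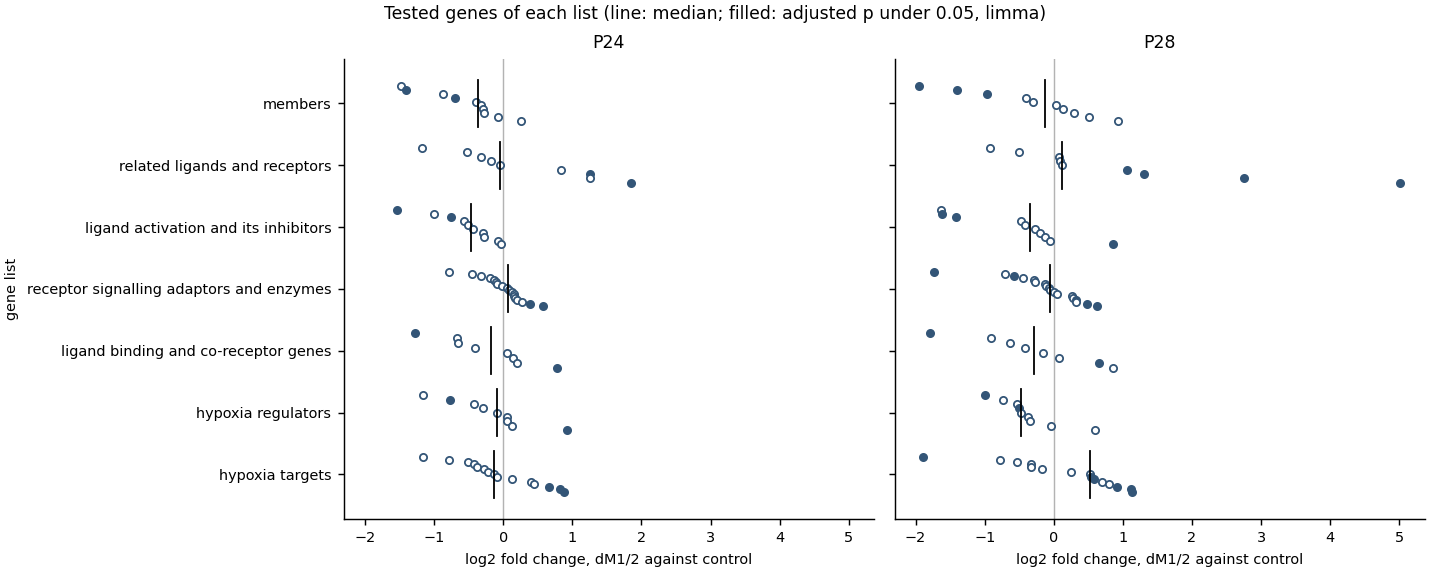
Log2 fold changes at P24 and P28 (horizontal axis, log2), dM1/2 against control, of the 10 members and of the genes of the related lists, with each point a gene, filled where the limma adjusted p is under 0.05, and a line at each median. Among the members the lowest filled point is Hgf at P28 (-1.96), and among the related genes the highest is Flt1 at P28 (5.02).

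Beside these lists the members had a median log2 fold change of -0.13 in the P20 fit, -0.36 at P24, -0.13 at P28 and 0.28 at P60, against -0.01, -0.01, 0.00 and 0.02 over all genes tested. The P28 medians of the members and of the lists are given with all libraries. Without P28 control 3, every member but Pdgfa and Vegfa had a lower P28 value. The middle values of the members were then those of Pdgfb (-0.88) and Pdgfrb (-0.52), so their median was lower than -0.13. In the main limma fits, with all libraries, no gene of the related lists was called at P60, and at P20 Pcsk6 alone was.

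The genes whose values were most like those of a member over the 24 libraries were taken by Pearson correlation of log2 values among 13397 genes, for the 4 members that fell. For Hgf they were Parp9 (r = 0.958 over 24 libraries, 0.90 in 12 anagen and 0.935 in 12 telogen) and Dtx3l (r = 0.947 over 24 libraries, 0.868 in 12 anagen and 0.937 in 12 telogen). For Pdgfra they were Kat2b (r = 0.908 over 24 libraries, 0.882 in 12 anagen and 0.924 in 12 telogen) and St3gal2 (r = 0.895 over 24 libraries, 0.825 in 12 anagen and 0.937 in 12 telogen). Those of Pdgfrb were Flt3l (r = 0.961 over 24 libraries, 0.849 in 12 anagen and 0.928 in 12 telogen) and Tmem106a (r = 0.959 over 24 libraries, 0.869 in 12 anagen and 0.895 in 12 telogen), and those of Vegfc Jdp2 (r = 0.969 over 24 libraries, 0.963 in 12 anagen and 0.706 in 12 telogen) and Esyt2 (r = 0.965 over 24 libraries, 0.939 in 12 anagen and 0.56 in 12 telogen). The 24 libraries differ together in stage, sex and depth, and the genes compared share these differences, so these likenesses are a description with no test.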

How the data were processed

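The signal values deposited by the authors are reads on genes divided by a DESeq2 size factor, in 4 tables (1 for each age) that share 25755 genes. The methods describe rRNA depletion, NEBNext Ultra Directional libraries, 50-base single-end reads of a HiSeq instrument, trimming with Trimmomatic, alignment with TopHat2 to mm10, counting with HTSeq on Ensembl annotation (GRCm38.p4) and DESeq2. The DESeq2 version and the strand setting of the counting are not stated. The tables also hold the authors' comparison columns (mean, log2 fold change, its error, test statistic, p and adjusted p of dM1/2 against control), which were not used. Whole reads were recovered by dividing each library by its smallest step, and 100% of values were whole within a tolerance of 0.01.

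The members and lists were chosen with earlier results of these data known. Genes were found by symbol. Each age was fitted with its 6 libraries in limma 3.58.1 (R 4.3.3) with a trend on log2 of the value plus a pseudocount of 1, for genes averaging 10 normalized reads or more, and adjusted p under 0.05 was the threshold. On this scale, fold changes of low genes such as Flt4 and Pdgfb are understated. The comparison of anagen with telogen is the mean effect of P24 and P28 minus that of P20 and P60, over all 24 libraries. A value of 0 means that no read of that gene was counted in the library, which still allows an expected number of up to 3 reads. All related ligands, receptors and activation genes could be named, and from each other list the 3 largest rises and 3 largest falls at P28. Alternatives were a pseudocount of 10, no filter on low values, the replicate number as a block, edgeR 4.0.16 (TMM scaling, or size factors of DESeq2), DESeq2 1.42.0, adjusted p under 0.01, a single fit over all 24 libraries, and leaving out each library in turn. The same alternatives for the related lists were added after the data had been seen. The scripts were first run on simulated tables with known changes.

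Replicate libraries differ by more than counting error: over pairs of replicates the chi-square per gene was 11 to 1579.6, the highest for P28 control 2 against P28 control 3. Annotated transcripts overlap some members: Gm43489 lies on the strand of Hgf, Gm42802 and Gm42803 are antisense to Pdgfra, 6330403L08Rik to Pdgfa and Gm16000 to Pdgfc. Without the strand setting, reads of these cannot be set apart from those of the members.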

Additional observations from a re-analysis of the deposited data

Results flagged for a closer look

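These results were marked since the effect of dM1/2 differs between hair cycle stages by the test of that difference (limma over all 24 libraries). The genotype effect in anagen minus that in telogen, on the log2 scale, was 0.83 for Pdgfc, -0.66 for Pdgfra, -0.52 for Pdgfrb and -1.93 for Hgf. Among the related genes it was 0.89 for Vegfb, 2.86 for Flt1, -1.12 for Furin and -1.11 for Pcsk5. For signalling and binding genes it was 0.5 for Gab1, -0.97 for Pik3r1 and -1.38 for Lrp1. In the hypoxia lists it was -0.83 for Arnt, 0.65 for Pgk1, 0.82 for Slc2a1, -1.18 for Ndrg1, 0.56 for Kdm3a and 0.92 for Ddit4. The Kdm3a call was lost with no filter on low values (adjusted p = 0.0663) and without any of 15 single libraries. Stage, sex, read depth and the cells sorted cannot be told apart in these differences.

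The effect at P28 minus that at P24 was -1.18 for Pcsk5. Grb10, an adaptor of receptor kinases, had log2 fold changes of opposite sign at P28 (0.28) and at P20 (-0.42). Neither passed the test (limma, adjusted p = 0.165 at P28 and 0.228 at P20), and the difference between these ages was not tested.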

How the results depend on the processing

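Of 1058 alternative values for the members, 1022 were labelled the same, 24 weaker, 9 stronger and 3 moved. The same stands for a call kept with its sign, or for an uncalled value that stayed uncalled and near its main value, by its SE. Moved values stayed uncalled but lay further off. These 1058 include 42 that changed sign, all of them of results not called with all libraries. For the genes of the other lists, 7192 of 7473 values were labelled the same, 137 weaker, 127 stronger, 15 moved and 2 reversed. Of these 7473, 366 changed sign, with the 2 reversed among them, again of results not called with all libraries. The reversed values are Nrp1 at P28 (0.09 with all libraries, -1.06 without P28 control 3, 0.94 without P28 control 2) and Thbs1 at P28 (0.07, -0.92 and 0.71). The cause was not tested.

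Members called at P20 numbered 0 in all other settings and 0 to 2 when single libraries were left out (2 without P20 control 1, where 11.1% of all genes were called). At P24 they were 2 to 4 in other settings (4 by DESeq2) and 2 to 3 with a library left out. Over all genes at P24, DESeq2 called 33.5%, and 14.6% to 28.7% were called with a library left out. P28 gave 2 to 3 in other settings and 2 to 4 with a library left out, and P60 0 throughout. Over all genes at P28 the share was 18.7% to 41.3% in other settings and 21.5% to 40.9% with a library left out. Members whose effect differed between anagen and telogen numbered 4, against 1 at an adjusted p under 0.01 and 2 to 5 with a library left out. Over all genes the shares were 17.9% at that threshold and 26.0% to 31.0% with a library left out. Those that differed between P28 and P24 were 0, and 1 by DESeq2, which called 4.21% of all genes. Members varying over the ages were 4 to 6 in controls, and in dM1/2 8 in other settings and 8 to 10 with a library left out. Over all genes the shares in controls were 24.6% to 59.0% in other settings and 38.5% to 51.9% with a library left out. In dM1/2 these shares were 43.6% to 66.9% and 52.6% to 64.0%. The cause of these shifts was not tested.

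Hgf kept its call in every omission, with -1.51 to -1.23 at P24 and -2.29 to -1.76 at P28. Pdgfra at P28 ranged from -1.05 to -0.88, Pdgfrb at P24 from -0.81 to -0.63 and Vegfc at P28 from -1.80 to -1.04.

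The replicate numbers of the labels were tried as pairs of control and dM1/2 libraries. The correlation over genes of deviations from the group means, for libraries with the same number in the 2 genotypes, was 0.082 to 0.231 at P20, where 6 of 6 libraries matched best with their own number, -0.401 to 0.043 at P24 (0 of 6), -0.229 to 0.027 at P28 (1 of 6) and 0.024 to 0.344 at P60 (3 of 6). The numbers thus do not pair the libraries at every age, and the block was kept as an alternative. With the replicate block, 0 members were called at P20, 2 at P24, 2 at P28 and 3 for anagen against telogen. Over all genes the block gave 439 calls at P20 (60 without), 2366 at P24 (3735 without), 3713 at P28 (5018 without), 6 at P60 (0 without) and 0 for P28 against P24 (100 without).

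Counts over all genes moved with other settings too. P20 gave 663 by DESeq2, 21 in a single fit, 4 at an adjusted p under 0.01, 1530 without P20 control 1 and 0 to 11 without any other library. P24 gave 1565 at an adjusted p under 0.01 and 2057 without P24 control 2, and P28 2638 at an adjusted p under 0.01 and 3043 without P28 dM1/2 2. P60 gave 26 by DESeq2 and 16 in a single fit. For P28 against P24 the count was 595 by DESeq2, 151 with a pseudocount of 10, 4 at an adjusted p under 0.01 and 8 to 167 with a library left out. Anagen against telogen gave 2555, and the ages in controls 3454, at an adjusted p under 0.01.

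With 3 libraries a group, differences smaller than the spread between mice are not seen, and an uncalled gene is not shown to be equal. Telogen libraries hold fewer reads than anagen ones, and 1 read is 1.85 to 2.87 normalized reads there. The same normalized value of a low gene thus rests on fewer reads in telogen. The control genotype of each library is not given. Sums over genes do not show transcripts, protein or the place of expression.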
